A study of Mus musculus with 9 samples.

Results

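Cells rich in the linker histone gene Hist1h1c and the core histone gene Hist1h2bc made up 771 of 15975 LSK cells (4.83%) in 9 single-cell RNA sequencing libraries of mouse bone marrow. LSK cells are the Lin- Sca1+ cKit+ fraction, which holds the hematopoietic stem cells and the multipotent progenitors. The cells were chosen by their own counts of unique molecular identifiers (UMIs, each a captured mRNA molecule). The UMIs of Hist1h1c, Hist1h2bc, Hist1h2bg and Hist1h2ac were summed in each cell and divided by its total, per 10000 UMIs, and the highest 5% of the pooled cells (799 cells, at 11.3 or more per 10000) were taken. Of these, 28 cells with 5 or more UMIs of Hist1h1b, another linker histone gene, were left out. The 771 cells are called Hist1h1c/Hist1h2bc-rich here, after the 2 genes that gave most of these UMIs, since the summed level of other replicative histone genes was higher in them in 6 of 9 libraries and lower in 3. They were compared with the 14113 other cells of the same libraries that also had fewer than 5 Hist1h1b UMIs.

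All mice were C57BL/6 and each library was 1 sample of sorted, viably frozen and thawed LSK cells. Young mice were 10 to 12 weeks old and aged mice were over 80 weeks old, and both were injected with cyclodextrin. The third group was aged mice given CASIN, an inhibitor of the small GTPase Cdc42, at 25 mg/kg in cyclodextrin by 4 intraperitoneal injections at intervals of 24 h, with the harvest on day 5. Each group had 3 libraries, numbered as replicates. By the labels' sequencing batch, the 5 libraries of batch 1 were young 1, young 2, aged 1, CASIN 1 and CASIN 2, and the remaining 4 were batch 2. The libraries held 1118 to 2441 cells and 19237354 to 42780953 UMIs. How many mice gave a sample is not given in the sources used here, so p-values measure the spread between these samples only.

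The Hist1h1c/Hist1h2bc-rich cells carried the RNA of the LSK gate. Kit, the receptor of stem cell factor, was at 96.3 CPM (counts per 1000000 UMIs of the summed cells in a library) in the lowest library, 161 in the median library and 238 in the highest, and Ly6a, which encodes Sca-1, was at 103, 128 and 211 CPM. Of the lineage genes, Cd3e of T cells and Ly6g of granulocytes had no UMI in Hist1h1c/Hist1h2bc-rich cells of any of the 9 libraries. Across the 9 libraries, 155 cells had a barcode that another library also held, among them 9 Hist1h1c/Hist1h2bc-rich cells, of which 4 shared it with another Hist1h1c/Hist1h2bc-rich cell.

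Most histone genes are replicative: they are transcribed in S phase, when new DNA must be packed, and their mRNAs end in a stem-loop bound by the protein Slbp and lack a poly(A) tail. A cell that stops replicating its DNA normally degrades these mRNAs. Some replicative histone genes can also give transcripts with a poly(A) tail, and these, or priming within the transcript, are what a poly(A)-based 3′ library can capture. Linker histones of the H1 family bind the nucleosome where DNA enters and leaves it, while H2A and H2B form dimers within its core.

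All of the genes that define the selection lie in the large histone cluster of chromosome 13. On GRCm38, Hist1h1c (ENSMUSG00000036181) is a single-exon gene at chr13:23738808-23740367, Hist1h2bg (ENSMUSG00000058385) is a single-exon gene at chr13:23571396-23572013 and Hist1h1b (ENSMUSG00000058773) is a single-exon gene at chr13:21779883-21780625. Hist1h2ac (ENSMUSG00000069270), at chr13:23681467-23683948 on the minus strand, and Hist1h2bc (ENSMUSG00000018102), at chr13:23684199-23692908 on the plus strand, are transcribed away from each other, and a transcript of Hist1h2bc has 2 exons. The start regions of the selecting genes are shown because they are what these genes do and do not share in sequence, from RefSeq on GRCm38.p6. Capitals mark matches, on either strand, to any of 4 motifs. The TATA box was searched as TATAAA and the CCAAT box by the letters of its name. The octamer, known from promoters of H2B genes, was searched as ATTTGCAT. The H1 box, known from promoters of linker histone genes, was searched as AAACACA. No motif is contained in another, and overlapping matches were marked together.
Hist1h1c, chr13:23738657-23738806, plus strand: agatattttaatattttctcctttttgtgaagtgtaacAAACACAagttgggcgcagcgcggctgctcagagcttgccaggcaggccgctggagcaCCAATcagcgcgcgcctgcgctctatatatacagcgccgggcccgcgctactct
Hist1h1b, chr13:21780626-21780775, minus strand: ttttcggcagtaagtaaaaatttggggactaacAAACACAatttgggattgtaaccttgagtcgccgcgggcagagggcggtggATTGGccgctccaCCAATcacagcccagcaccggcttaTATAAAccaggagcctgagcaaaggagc
Hist1h2ac to Hist1h2bc, chr13:23683960-23684198, minus strand: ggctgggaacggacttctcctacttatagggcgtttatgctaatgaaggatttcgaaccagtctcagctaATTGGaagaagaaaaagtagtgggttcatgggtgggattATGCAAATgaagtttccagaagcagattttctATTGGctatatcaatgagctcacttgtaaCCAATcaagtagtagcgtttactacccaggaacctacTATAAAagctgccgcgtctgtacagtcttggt
Hist1h2bg to Hist1h2ae, chr13:23571221-23571399, plus strand: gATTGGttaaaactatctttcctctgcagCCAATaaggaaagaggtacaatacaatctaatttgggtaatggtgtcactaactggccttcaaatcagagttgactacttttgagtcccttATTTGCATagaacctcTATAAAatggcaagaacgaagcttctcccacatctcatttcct

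Both linker histone promoters held 1 H1 box, which 3.53% of 32851 RefSeq promoters hold in a window of the same 150 bases. Hist1h1b, the gene used to leave cells out, also held a TATA box, and Hist1h1c had no match to these 6 letters in this window. The interval of 239 bases between Hist1h2ac and Hist1h2bc held 1 octamer (1.55% of promoters of that length), 3 CCAAT boxes (at least 1 in 32.9%) and 1 TATA box (11.9%). The interval of 179 bases between Hist1h2bg and Hist1h2ae likewise held 1 octamer (1.19%), 2 CCAAT boxes (27.4%) and 1 TATA box (8.89%). A match of letters is a description of the sequence and was not tested as a binding site.

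The values that chose the cells were as follows, and they support no result. Hist1h1c/Hist1h2bc-rich cells had a median of 17 UMIs of the 4 genes together (2 to 104), and 18 of the 771 had fewer than 5. The value per 10000 UMIs had a median of 15.9 in Hist1h1c/Hist1h2bc-rich cells and 1.66 in all cells, and 3922 cells (24.6%) had no UMI of the 4 genes. The lowest cell inside the limit had 8 such UMIs of 7064 in all, and the highest cell outside it had 15 of 13248, or 11.3 per 10000 to 3 digits. Hist1h2bc gave 51.1% of the selecting UMIs and Hist1h1c 40.7%, whereas Hist1h2ac gave 6.53% and Hist1h2bg 1.64%. At least 1 UMI of Hist1h1c was found in 97.7% of Hist1h1c/Hist1h2bc-rich cells, of Hist1h2bc in 94.0%, of Hist1h2ac in 54.2% and of Hist1h2bg in 21.7%. The group is therefore in practice one of high Hist1h1c and Hist1h2bc. Its reads may be shared in part with near-identical histone copies, so the split between these genes is uncertain.

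By library, Hist1h1c was at 555 CPM in the lowest library of Hist1h1c/Hist1h2bc-rich cells, 795 in the median library and 890 in the highest, against 73.7, 104 and 150 CPM in the other cells. Hist1h2bc was at 721, 858 and 1414 CPM against 48.0, 70.6 and 122 CPM. For these 2 genes the ranges did not overlap, which the selection itself ensures. Hist1h1c was lowest in young replicate 1 (555 CPM) and highest in aged replicate 1 (890 CPM), while Hist1h2bc was highest in the libraries of young replicates 1 and 2 (1253 and 1414 CPM). Hist1h2bg, at 44.7 to 63.6 CPM in batch 1, was at 5.02 to 12.8 CPM in batch 2. Hist1h1b, on which only an upper limit was set, was higher in Hist1h1c/Hist1h2bc-rich than in other cells in all 5 libraries of batch 1 (means of 34.3 and 11.3 CPM) and lower in all 4 of batch 2 (8.01 and 17.0 CPM).

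Hist1h1c/Hist1h2bc-rich cells occurred in every library, and their share ran from 2.06% to 8.97%. In young mice they were 97 of 2158 cells (4.49%, exact 95% binomial interval 3.66 to 5.46), 122 of 2211 (5.52%, 4.60 to 6.55) and 25 of 1212 (2.06%, 1.34 to 3.03). In aged mice they were 45 of 1569 cells (2.87%, 2.10 to 3.82), 77 of 1691 (4.55%, 3.61 to 5.66) and 159 of 1772 (8.97%, 7.68 to 10.4). In CASIN-treated aged mice they were 28 of 1118 cells (2.50%, 1.67 to 3.60), 66 of 1803 (3.66%, 2.84 to 4.63) and 152 of 2441 (6.23%, 5.30 to 7.26). These intervals cover counting error only. The group ranges overlapped, and the highest and the lowest library were both in batch 2.

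**Figure D1:**
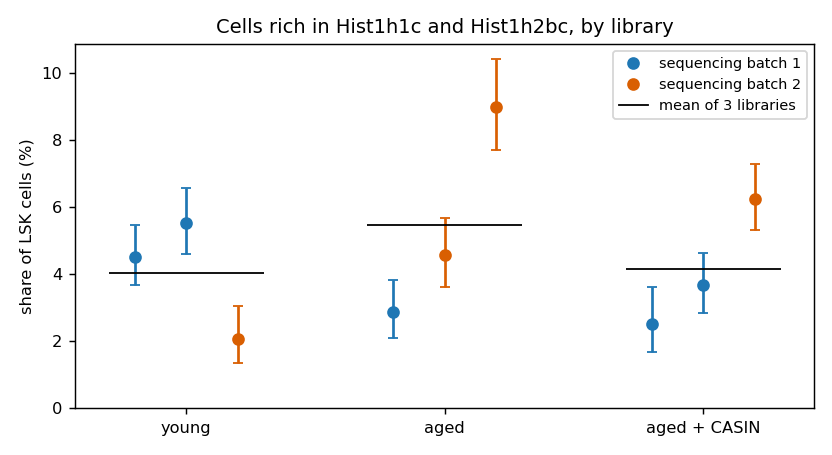
Share of LSK cells that were Hist1h1c/Hist1h2bc-rich, in percent, for each of the 9 libraries by group, with exact 95% binomial intervals and the mean of 3 libraries as a line; colour gives the sequencing batch. The shares run from 2.06% to 8.97% and those of the 3 groups overlap.

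The mean share was 4.03% ± 1.77 (SD, n = 3) in young, 5.46% ± 3.15 (n = 3) in aged and 4.13% ± 1.91 (n = 3) in CASIN libraries. Aged exceeded young by 1.44 percentage points (two-sided exact permutation test, p = 0.6), and the smallest p that 3 against 3 libraries allow is 0.1. The direction differed between batches, with aged 2.14 points below young in batch 1 (-2.14) and 4.70 points above it in batch 2. CASIN differed from aged by -1.33 points (exact permutation p = 0.6, with 0.21 points in batch 1 and -0.54 in batch 2) and from young by 0.11 points (exact permutation p = 1, with -1.92 and 4.16 points). Without aged replicate 3, the library with the highest share, the difference of aged from young was -0.31 points and that of CASIN from aged was 0.42 points.

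The libraries also differed in other features, whose relation to the shares was not tested. In batch 1, cells with 5 or more Hist1h1b UMIs, which the selection leaves out, were 4.33% to 12.5% of a library, and in batch 2 they were 3.13% to 5.86%. Hist1h1c/Hist1h2bc-rich cells had a median of 8674.5 to 13009.5 UMIs per library against 9284 to 13847 in the other cells, and were the shallower class in 8 of 9 libraries. The part of depth in the share was not tested. A selection made after every cell was thinned to 4000 UMIs shared 606 of its 876 cells with the Hist1h1c/Hist1h2bc-rich cells. A selection that left Hist1h1c out of the sum shared 532 of its 766 cells with them.

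Whether these cells had just left the cell cycle was asked first of phase calls. Each cell with at least 4000 UMIs was thinned to that number and scored for the S and G2/M gene lists of Seurat. These lists hold no replicative histone gene, but the G2/M list holds the variant histone gene Cenpa. A cell with neither score above 0 was called G1. Phase calls cannot tell G1 from G0 and read free RNA as well, so a call is a class of RNA and not a measurement of DNA content. At this depth, 744 Hist1h1c/Hist1h2bc-rich cells could be called.

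Hist1h1c/Hist1h2bc-rich cells were seldom called S. In young replicates 1 to 3 the share called S was 17.9%, 9.17% and 4.35%, against 49.4%, 36.4% and 18.9% of the other cells. In the aged libraries it was 9.30%, 1.32% and 6.12% against 22.4%, 25.2% and 17.3%, and in the CASIN libraries it was 11.5%, 7.81% and 0.67% against 28.9%, 25.9% and 13.1%. The share was lower in Hist1h1c/Hist1h2bc-rich cells in 9 of 9 libraries, with means of 7.57% ± 5.33 and 26.4% ± 11.0 (SD, n = 9) and a difference of -18.8 points. The exact sign-flip permutation test over the 9 libraries gave p = 0.0039, the smallest it can give (0.0195 adjusted over the 5 phase and gate shares tested). The difference was -21.5 points in batch 1 and -15.5 points in batch 2, and -20.4 points without thinning.

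More Hist1h1c/Hist1h2bc-rich than other cells were called G2/M over all libraries, and the difference lay in batch 1. In the 5 libraries of batch 1 the mean share called G2/M was 23.4% in Hist1h1c/Hist1h2bc-rich and 4.88% in the other cells, 18.5 points apart, and the difference was positive in each (13.0 to 26.8 points). In the 4 libraries of batch 2 the means were 15.8% and 15.5%, and the difference was -1.78 to 2.84 points (exact permutation p = 0.75). Over all 9 libraries the difference was 10.4 points (20.03% ± 6.12 against 9.58% ± 6.23, exact permutation p = 0.0234, adjusted 0.0391), positive in 7 of 9. This call was lost with the top 2% of cells (12.1 points) and against all other cells (7.12 points). The 4 libraries of batch 2 cannot reach a p below 0.125.

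The G1 call was the most frequent one in Hist1h1c/Hist1h2bc-rich cells of every library. It took 72.4% ± 10.1 of them and 64.0% ± 10.0 of the other cells (SD, n = 9), a difference of 8.38 points that was positive in 8 of 9 libraries (exact permutation p = 0.0352, adjusted 0.0439). Leaving out any 1 of 5 libraries (young 1, young 3, aged 2, aged 3 or CASIN 3) ended this call, with differences of 6.79 to 8.02 points (exact permutation p = 0.0703). So did 5 alternative selections (2.45 to 7.19 points), with the lowest value when Hist1h1c was left out of the sum. In batch 2 the difference was 11.2 to 21.1 points, with a mean of 15.2. In batch 1 it was -9.44 to 14.9 points, with a mean of 2.96 (exact permutation p = 0.5625). The lower share of S was thus met by a higher share of G2/M in batch 1 and of G1 in batch 2. Whether the batches differ in these calls was not tested.

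**Figure D2:**
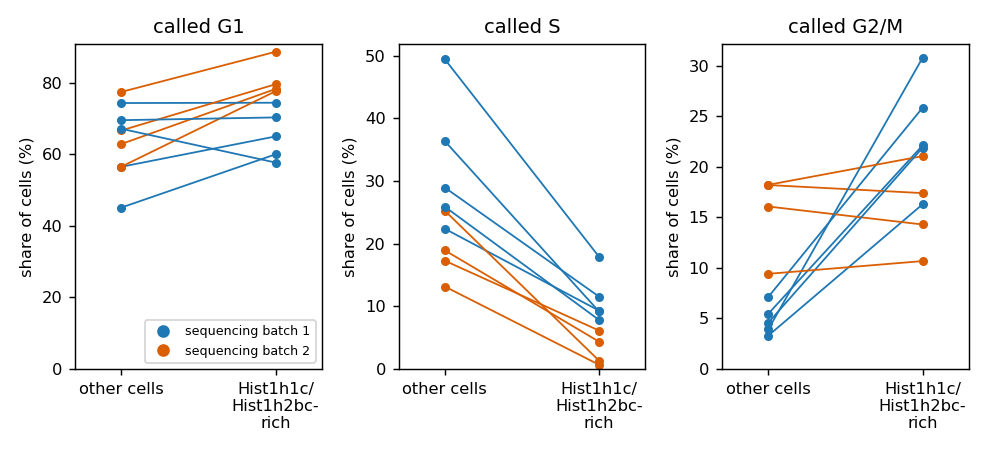
Share of Hist1h1c/Hist1h2bc-rich cells and of other cells called G1, S and G2/M, in percent, after thinning to 4000 UMIs; a line joins the 2 values of 1 library and colour gives the batch. The share called S is lower in Hist1h1c/Hist1h2bc-rich cells in all 9 libraries, while the share called G2/M is higher in the 5 libraries of batch 1 and differs by -1.78 to 2.84 points in batch 2.

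The same calls were set against the level of the 4 histone genes across all cells with fewer than 5 Hist1h1b UMIs. The median share called S over the 9 libraries was 26.2% in cells with no selecting UMI and 31.7% in cells with up to 2 per 10000. It was 18.6%, 17.4%, 12.9% and 13.2% in the next 4 ranges, which end at 4, 6, 8 and 11.3 per 10000, and 7.81% in Hist1h1c/Hist1h2bc-rich cells. In batch 1 the median share called G2/M was 2.15% in cells with no selecting UMI, 10.9% in the range from 6 to 8, 8.89% in the range just below the limit and 22.1% in Hist1h1c/Hist1h2bc-rich cells. In batch 2 it was 9.88%, 21.3%, 22.01% and 15.8% in the same cells, with its highest value, 23.3%, between 2 and 4 per 10000. The range just below the limit held 16 cells in its smallest library, CASIN replicate 1. These shares are a description, since the ranges share libraries and differ in depth.

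**Figure D3:**
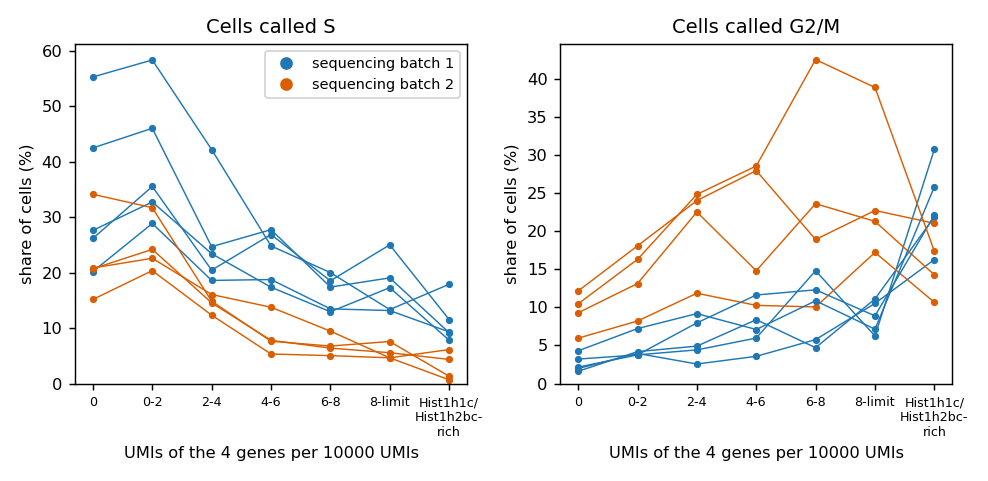
Share of cells called S (left) and G2/M (right), in percent, against the UMIs of Hist1h1c, Hist1h2bc, Hist1h2bg and Hist1h2ac per 10000, in 7 ranges, for each library coloured by batch. The median share called S is lowest in the Hist1h1c/Hist1h2bc-rich cells in both batches (9.30% and 2.83%), and the median share called G2/M is highest there in batch 1 only.

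Genes were then compared between Hist1h1c/Hist1h2bc-rich and other cells on UMIs summed per library and class, with edgeR's quasi-likelihood test, the library as a block and Benjamini-Hochberg adjustment over 11611 genes at a threshold of 0.05. In all, 451 genes (3.88% of those tested) rose and 853 (7.35%) fell, and the median log2 fold change of all genes was -0.004. Counts over all 9 libraries within the gene lists below are to be read against these shares. Without 1 library, 294 (without young replicate 1) to 461 genes rose and 603 to 875 fell. The other alternatives gave 19 to 692 rises and 51 to 1314 falls. Batch 1 alone gave 587 rises (4.99%) and 1003 falls (8.53%), and batch 2 alone gave 205 rises (1.73%) and 473 falls (3.99%). The genes used for the selection were not tested. Other replicative histone genes are less independent of the selection than the rest, since they are near-identical in sequence and lie in the same clusters.

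Nearly all genes of S phase fell. Of the 43 S phase genes of the Seurat list, 39 fell and none rose, with a median log2 fold change of -1.26, and 40 fell in batch 1 alone and 37 in batch 2 alone. Of 34 DNA replication genes, 32 fell and none rose, with a median of -1.37. Summed over the DNA replication list, Hist1h1c/Hist1h2bc-rich cells had 762 ± 125 CPM (SD, n = 9) and the other cells 1591 ± 383 CPM. Among the other cells, those called G1 had 693 ± 92.9 CPM and those called S had 3082 ± 246 CPM.

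Mcm5, a subunit of the replicative helicase, was at 8.33 CPM in the lowest library of Hist1h1c/Hist1h2bc-rich cells, 15.8 in the median and 28.3 in the highest, against 36.1, 49.7 and 97.3 CPM in the other cells. The ranges did not overlap, and the log2 fold change was -1.87 ± 0.11 (SE, edgeR adjusted p = 6.3e-14). Pclaf, a PCNA-binding factor of replicating chromatin, was at 1.16, 5.51 and 13.2 CPM against 28.2, 58.1 and 98.6 CPM, and it fell by 3.25 on the log2 scale. Tyms, thymidylate synthase, was at 7.52, 11.8 and 17.8 CPM against 34.9, 53.1 and 79.8 CPM and fell by 2.30. Lig1, the ligase that joins Okazaki fragments, fell by 2.01, Hells, a chromatin remodeller, by 2.16 and Uhrf1, which guides maintenance methylation of new DNA, by 2.22. All 9 libraries were lower in Hist1h1c/Hist1h2bc-rich cells for each of these genes, and for each the 2 classes did not overlap. The uracil glycosylase gene Ung fell by 2.76, with ranges that overlapped.

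Several other S phase genes fell by less. Mcm6 fell by 1.06, Dut, which clears dUTP, by 1.17, Rfc2 of the clamp loader by 0.56, and Pcna, the sliding clamp, by 0.54. Pcna was at 48.1 to 81.1 CPM in Hist1h1c/Hist1h2bc-rich cells and 69.5 to 108 CPM in the other cells. All 9 libraries were lower for these genes too.

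Of 20 tested cyclins, Cdks, Cdk inhibitors and pocket protein or E2F genes of G1, 11 fell and 3 rose. Among all genes tested, 7.35% fell and 3.88% rose. E2f1, a transcription factor that switches on S phase genes, was at 0 to 7.06 CPM in Hist1h1c/Hist1h2bc-rich cells and 12.9 to 33.8 CPM in the other cells, and fell by 2.53 (edgeR adjusted p = 8.84e-10). Ccne2 and Ccne1, the E-type cyclins, fell by 2.95 and 2.22, from low median levels of 7.22 and 3.54 CPM in the other cells. Ccnd1, a D-type cyclin, fell by 0.83 overall (edgeR adjusted p = 0.00108), and by 1.68 in batch 1 alone, and in batch 2 alone it did not pass (log2 fold change -0.13, edgeR adjusted p = 0.781). Ccnd2 fell by 0.27, Cdk4 by 0.46, Cdk6 by 0.32, Cdk2 by 0.44, Rbl1 by 0.99, E2f2 by 1.66 and E2f3 by 0.61.

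The 3 genes of this list that rose were Cdkn1b, Cdkn2d and Ccnd3. Cdkn1b encodes p27, an inhibitor of cyclin-Cdk complexes that is high in quiescent cells. It was at 58.0, 91.8 and 117 CPM against 47.9, 67.6 and 73.4 CPM, higher in 8 of 9 libraries, with a log2 fold change of 0.43 ± 0.08 (edgeR adjusted p = 0.000557). The rise was 0.65 in batch 1 and 0.14 in batch 2, where it did not pass (edgeR adjusted p = 0.539). Cdkn2d, which encodes the Cdk4/6 inhibitor p19, rose by 0.24 in 9 of 9 libraries, and Ccnd3 by 0.20 in 8 of 9. The inhibitor genes Cdkn1a (log2 fold change 0.18), Cdkn1c (-0.19) and Cdkn2c (0.10) did not pass.

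Genes of mitosis were split, and 4 genes of late G2 and mitosis were among the 12 largest rises that were shared by all 9 libraries. Ccnb2, a B-type cyclin of mitotic entry, was at 31.4, 73.0 and 160 CPM in Hist1h1c/Hist1h2bc-rich cells and at 8.68, 19.8 and 41.1 CPM in the other cells. It was higher in 9 of 9 libraries, with a log2 fold change of 1.88 ± 0.22 (edgeR adjusted p = 2.69e-07). The libraries of batch 1 were all above those of batch 2, with 73.0 to 160 CPM in the former and 31.4 to 51.2 CPM in the latter. Cenpe, a kinetochore motor, was at 18.8, 51.2 and 91.6 CPM against 3.88, 12.9 and 20.4 CPM and rose by 1.86. Cenpf, a kinetochore protein made in late G2, was at 30.6, 61.7 and 110 CPM against 13.7, 26.8 and 44.5 CPM and rose by 1.17. Knstrn, a spindle-attachment protein, rose by 1.28. These 4 genes rose in both batches, by 1.43 to 2.69 in batch 1 and 0.61 to 0.83 in batch 2.

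Of 34 tested genes of mitosis and cytokinesis, 6 rose (Ccnb2, Cenpe, Cenpf, Cdc20, Ube2c and Fzr1) and 4 fell (Aurkb, Ccna2, Cdk1 and Top2a), with a median log2 fold change of -0.03. Among all genes tested, 3.88% rose and 7.35% fell. Cdc20 and Fzr1 activate the anaphase-promoting complex and Ube2c is its ubiquitin-conjugating enzyme, and they rose by 0.63, 0.47 and 0.64. Ccna2, the cyclin of S phase and G2, fell by 0.80, Cdk1 by 0.52, Top2a by 0.60 and Aurkb by 1.39. The call of Top2a was lost in 9 of 23 alternatives (log2 fold changes of -0.35 to -0.07), among them the selection on thinned cells, the top 10% and G1 calls. Of the 53 tested genes of the G2/M list, 8 rose and 9 fell, and the 8 were Ccnb2, Cenpe, Cenpf, Cdc20, Ube2c, Psrc1, Cdca3 and Cenpa. Of these, Cdca3 had a mean log2 ratio over libraries of 1.90 in batch 1 and -0.38 in batch 2 (batch interaction, edgeR adjusted p = 2.13e-07), and Cenpa one of 1.29 and 0.25 (1.55e-09). Summed over the mitosis list, Hist1h1c/Hist1h2bc-rich cells had 1019 ± 305 CPM and all other cells 898 ± 249 CPM (SD, n = 9). The sum was higher in Hist1h1c/Hist1h2bc-rich cells in all 5 libraries of batch 1 (means of 1139 and 773 CPM) and in 1 of 4 of batch 2 (868 and 1053 CPM). The other cells called G1 had 351 ± 64.1 CPM and those called G2/M 3865 ± 1216 CPM.

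Mki67, the gene of the proliferation antigen Ki-67, went in opposite directions in the batches. In batch 1 it was at 51.9, 43.5, 23.5, 39.5 and 61.7 CPM in Hist1h1c/Hist1h2bc-rich cells and at 20.7, 25.5, 9.48, 13.5 and 14.7 CPM in the other cells. In batch 2 it was at 29.9, 46.4, 41.0 and 33.2 CPM against 89.9, 114, 105 and 64.7 CPM. All 5 libraries of batch 1 were higher and all 4 of batch 2 were lower, so that the log2 fold change was 1.28 in the former, -1.24 in the latter and -0.19 over all (edgeR adjusted p = 0.736). The levels of Hist1h1c/Hist1h2bc-rich cells overlapped between the batches, and those of the other cells did not. The limit on Hist1h1b UMIs applied to these other cells too, and its part in the split of Mki67 and the mitosis genes was not tested.

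The dependence on the batch was tested itself, as an interaction of class and batch in the same model, and 166 genes (1.43%) passed, 44 with the higher and 122 with the lower difference in batch 2. They held 12 of the 53 G2/M genes and 8 of the 34 mitosis genes with a lower difference in batch 2, and 1 and 0 with a higher one. None of the 34 DNA replication genes passed, and 1 of the 43 S phase genes did. Mki67 (difference of log2 fold changes -2.79), Cenpe (-2.13) and Ccnb2 (-2.19) were among the genes that passed.

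**Figure D4:**
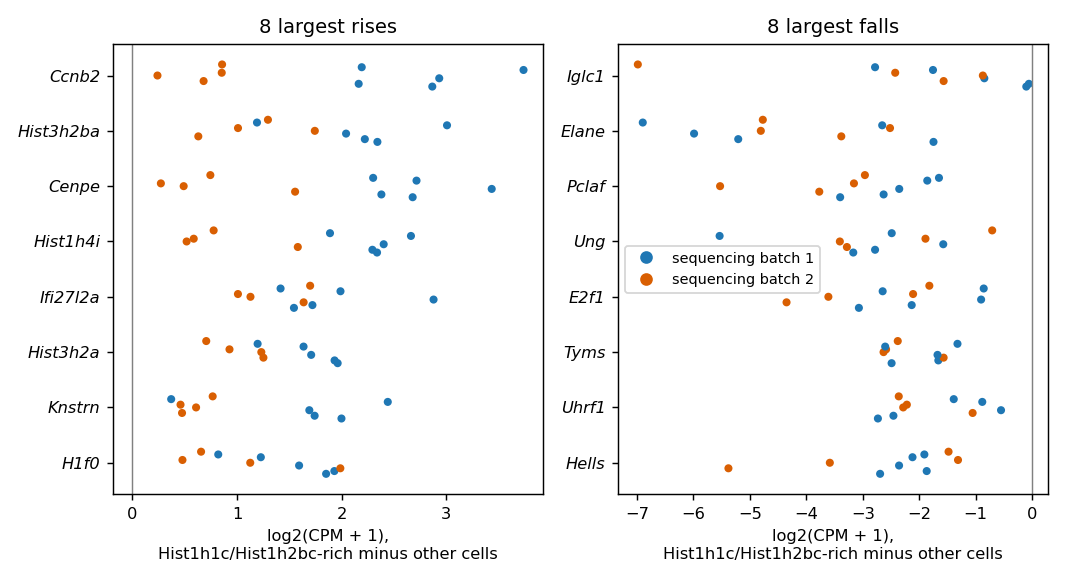
Difference in log2(CPM + 1) between Hist1h1c/Hist1h2bc-rich and other cells for the 8 genes with the largest rises (left) and the 8 with the largest falls (right) among those that moved the same way in all 9 libraries, with 1 point per library coloured by batch and a grey line at 0. For Ccnb2 and Cenpe the 5 libraries of batch 1 lie farther from 0 than the 4 of batch 2, while for Tyms, Uhrf1 and Hells the batches overlap.

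Histone genes outside the selection formed the next group. Of 38 tested replicative histone genes, 18 rose and none fell, with a median log2 fold change of 0.80. In batch 1 alone 31 of 42 rose, with a median of 1.36, while in batch 2 alone 4 of 36 rose and 6 fell, with a median of -0.50. The batch interaction passed for 15 of the 38, each with a lower difference in batch 2. Summed over the list, the mean level in Hist1h1c/Hist1h2bc-rich cells was 2918 CPM in batch 1 and 470 CPM in batch 2, against 950 and 588 CPM in the other cells.

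Hist1h2ap, the most abundant of them, shows the split. It was at 880, 1284, 1034, 1679 and 765 CPM in Hist1h1c/Hist1h2bc-rich cells of batch 1 and at 183, 85.9, 109 and 27.0 CPM in those of batch 2. The other cells had 231 to 336 CPM and 86.0 to 316 CPM. All libraries of batch 1 were higher and all of batch 2 lower, and the log2 fold change over all was 0.87 (edgeR adjusted p = 0.0634). A smaller set rose in both batches: Hist3h2ba by 2.26 and 1.31, Hist3h2a by 1.78 and 1.01, and Hist1h4i by 2.32 and 0.74. Hist3h2ba was at 21.3 to 97.3 CPM against 9.69 to 19.7 CPM, with no overlap. Which copy a read came from is uncertain for most of these genes.

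Of 11 variant histone genes, which are expressed outside S phase from mRNAs with poly(A) tails, 5 rose (H1f0, H1fx, Cenpa, H2afv and H3f3b) and 2 fell (H2afy and H2afj). H1f0, a replacement linker histone that accumulates in cells that stop dividing, was at 57.1, 120 and 243 CPM in Hist1h1c/Hist1h2bc-rich cells and 22.9, 40.7 and 79.7 CPM in the other cells. It was higher in 9 of 9 libraries, with a log2 fold change of 1.26 ± 0.12 (edgeR adjusted p = 1.54e-09), and by 1.54 and 0.83 in the batches. H3f3b, which encodes the replacement histone H3.3, rose by 0.41 in 9 of 9 libraries, while its sister gene H3f3a had a log2 fold change of -0.02 (adjusted p = 0.899). Cenpa, the H3 variant of centromeres that is loaded after mitosis, rose by 0.72, by 1.28 in batch 1 and by 0.26 in batch 2. H2afv had a mean log2 ratio of 0.43 in batch 1 and 0.02 in batch 2 (batch interaction, edgeR adjusted p = 0.0173). Of 14 tested genes of histone mRNA 3′ processing, 3 fell and none rose. Slbp, the stem-loop binding protein, was at 33.3, 62.4 and 97.6 CPM against 60.3, 95.3 and 120 CPM and fell by 0.69, and Casp8ap2 and Eri1 fell by 0.47 and 0.36.

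Of the remaining large rises, Ptms, parathymosin, which binds linker histone H1, rose by 0.95 and the unnamed transcript 1700097N02Rik by 0.92. Among 20 genes of growth and ribosome biogenesis, 16 fell and none rose, with a median of -0.47, and the summed level was lower in 9 of 9 libraries. Npm1 of the nucleolus fell by 0.33, Ncl, nucleolin, by 0.40 and Srm, spermidine synthase, by 1.09.

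The comparison was repeated within cells called G1 only, where the S and G2/M calls are equal by construction. There 133 genes rose (1.23% of 10842 tested) and 269 fell (2.48%). Of the S phase genes 2 of 35 fell and of the DNA replication genes 3 of 28, with list medians of -0.16 and -0.23. Lig1 (log2 fold change -0.75) and Mcm5 (-0.80) still fell, and Pcna (0.05, edgeR adjusted p = 0.878) and Mcm6 (-0.16, adjusted p = 0.451) did not pass. Mitosis genes went the other way, with 5 of 17 tested rising and none falling.

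Within G1 calls, Ccnb2 rose by 3.95 (edgeR adjusted p = 8.2e-12), Cenpe by 3.03, Cenpf by 2.73 and Knstrn by 1.82. Mki67, which did not pass over all cells, rose by 1.38 (adjusted p = 0.0139). H1f0 rose by 0.96 and H3f3b by 0.37, and 18 of 24 tested replicative histone genes rose, with a median of 1.27. The call itself limits the summed S and G2/M lists, so these genes are not independent of it. Cdkn1b was at a log2 fold change of 0.27 here and did not pass (adjusted p = 0.0769), and 7 of 18 stem cell genes fell.

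**Figure D5:**
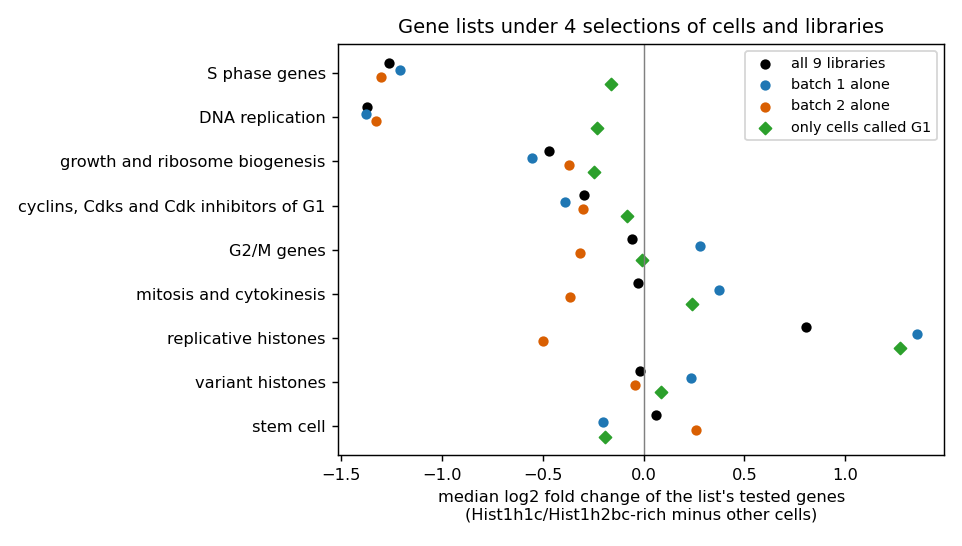
Median log2 fold change of the tested genes of each list between Hist1h1c/Hist1h2bc-rich and other cells, over all 9 libraries, in each batch alone and in cells called G1 only. The S phase and DNA replication lists lie below -1 in the 3 comparisons over all phases and near 0 within G1 calls, while replicative histones lie above 0 except in batch 2.

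Thinned cells were also counted by UMIs of 2 receptor genes. A Procr cell has a UMI of Procr, the endothelial protein C receptor, and none of Flt3, a receptor tyrosine kinase, and a Flt3 cell has the reverse. The share that free RNA gives was not measured, so these are shares of cells with a UMI and do not place the cells among stem cells and progenitors. Procr cells were 20.8% ± 11.0 of Hist1h1c/Hist1h2bc-rich and 24.1% ± 8.02 of other cells (SD, n = 9), a difference of -3.30 points (exact permutation p = 0.0664, adjusted 0.0664), lower in 7 of 9 libraries. Flt3 cells were 25.5% ± 12.1 and 18.7% ± 8.23, a difference of 6.79 points (exact permutation p = 0.0156, adjusted 0.0391), higher in 8 of 9. The latter was 10.4 points in batch 1 and 2.26 points in batch 2 (exact permutation p = 0.375 in batch 2). Without thinning the Flt3 difference was 4.96 points (exact permutation p = 0.0742).

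Of 18 stem cell genes, 1 rose and none fell over all libraries, against 3.88% and 7.35% of all genes tested. It was Hlf, a transcription factor of stem cells, at 149, 244 and 363 CPM against 117, 216 and 281 CPM with a log2 fold change of 0.23 (edgeR adjusted p = 0.00825). The call of Hlf was lost in 10 of 23 alternatives (log2 fold changes of 0.05 to 0.25), among them batch 1 alone and G1 calls. In 1 more, G1 calls of batch 1, its direction reversed (-0.13). The call was also lost without CASIN replicate 3 (0.18, edgeR adjusted p = 0.0559). In batch 1 alone 8 of the 18 fell and none rose, in batch 2 alone 4 rose and none fell, and the batch interaction passed for 6. Of 15 lymphoid genes, 5 rose (Dntt, Flt3, Lsp1, Mn1 and Notch1) and 4 fell (Cd52, Ebf1, Il7r and Ly6d). Their summed level was higher in 4 of 5 libraries of batch 1 (means of 1539 and 1432 CPM). In batch 2 it was higher in 0 of 4 (1261 and 3812 CPM). Ighm, their most abundant gene in the other cells, had a mean log2 ratio over libraries of 0.50 in batch 1 and -4.23 in batch 2 (batch interaction, edgeR adjusted p = 2.07e-20). Flt3 had a mean log2 ratio over libraries of 0.74 in batch 1 and -0.05 in batch 2 (batch interaction, edgeR adjusted p = 3.3e-05). Dntt, terminal transferase, rose by 0.36, by 0.73 in batch 1 and with a log2 fold change of -0.22 in batch 2 that did not pass (edgeR adjusted p = 0.143). Il7r, Ebf1 and Ly6d, known from committed lymphoid progenitors, fell by 1.42, 1.32 and 1.34.

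Of 13 granulocyte and monocyte genes 7 fell and none rose, and the summed level of the list was lower in 7 of 9 libraries. Its most abundant gene, Plac8, had a log2 fold change of 0.03 (edgeR adjusted p = 0.919), with 0.31 in batch 1 and -0.31 in batch 2. Of 9 megakaryocyte and erythroid genes 3 fell (Pf4, Itga2b and Hbb-bs) and none rose. Elane, neutrophil elastase, was at 0 to 14.9 CPM in Hist1h1c/Hist1h2bc-rich and 5.31 to 124 CPM in other cells and fell by 4.02, although its log2 fold change was 0.15 when the selection was made on thinned cells. Mpo, myeloperoxidase, was at 11.7, 44.1 and 61.5 CPM against 38.6, 94.7 and 238 CPM and fell by 1.46. Pf4, platelet factor 4, fell by 1.26 and Itga2b, the integrin CD41, by 0.84.

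Lists of other cell types were measured as well. All 4 tested genes of mature granulocytes and macrophages fell. The 11 genes of that list summed to 193 to 287 CPM by library against 256 to 407 CPM in the other cells, with Lyz2 (172 to 273 CPM) as the most abundant one. The 7 red cell genes summed to 0 to 18.4 CPM against 13.1 to 53.7 CPM, and the 9 lymphocyte genes to 63.3 to 205 CPM against 89.9 to 223 CPM. Both tested red cell genes fell, Hbb-bt by 1.71 at 0 to 18.3 CPM against 12.0 to 50.2 CPM. Of 5 lymphocyte genes Nkg7 fell, by 0.30, and its list was lower in summed level in 7 of 9 libraries. Of 6 stromal, endothelial and mast cell genes Cpa3 fell, by 1.28, while the summed level of that list, with Pecam1 as its most abundant gene, was 64.0 CPM in the median library against 65.0 CPM and was higher in Hist1h1c/Hist1h2bc-rich cells in 5 of 9 libraries. The immunoglobulin light chain gene Iglc1 fell by 4.93, the largest fall of those named. Its level in the other cells was 839 CPM in CASIN replicate 3 and 5.88 CPM in the median library. The part of free or captured RNA of these cells in the results above was not tested.

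Signs of stress and signalling were mixed, beside 3.88% of all tested genes that rose and 7.35% that fell. Of 11 tested interferon response genes 3 rose and none fell, and the summed level was higher in 9 of 9 libraries. Ifi27l2a, the leading one, was at 53.5, 71.0 and 191 CPM against 10.7, 26.1 and 57.2 CPM, higher in 9 of 9 libraries, with a log2 fold change of 1.59 ± 0.11 (edgeR adjusted p = 1.75e-12) and 1.72 and 1.35 in the batches. Ifit1 rose by 1.48 and Isg15 by 0.66, while Bst2 (-0.12, adjusted p = 0.179) did not pass. Of 16 p53 targets, Bbc3 alone passed and rose by 0.44, a count near the share of all genes and no result about the list. Of 16 immediate early genes, which respond to tissue handling, Klf2 and Ier3 rose by 0.46 and 0.35, each higher in 6 of 9 libraries, and Fos, Fosb and Jund fell by 0.37, 0.77 and 0.18. The mean log2 ratio over libraries was 0.51 in batch 1 and -0.20 in batch 2 for Klf2, and 0.64 and 0.02 for Ier3 (batch interaction of Ier3, edgeR adjusted p = 9.3e-06). Median mitochondrial shares were 2.70% to 7.19% in Hist1h1c/Hist1h2bc-rich and 2.70% to 7.04% in other cells by library. Cdc42, the target of CASIN, was at 361 to 435 CPM in Hist1h1c/Hist1h2bc-rich and 360 to 390 CPM in other cells (log2 fold change 0.06, adjusted p = 0.523).

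Young, aged and CASIN libraries were last compared within the Hist1h1c/Hist1h2bc-rich cells, with 8150 genes tested and the batch as a term. Fewer cells with an RNA and less of it per cell cannot be told apart in such sums. From young to aged 44 genes rose (0.54%) and 1 fell (0.0123%), and from young to CASIN 57 rose (0.699%) and 3 fell (0.0368%). These comparisons share the young libraries. With no batch term no gene passed with edgeR in either (507 and 212 had an unadjusted p under 0.05). With the top 2% of cells 0 and 4 passed, and without young replicate 2 there were 11 and 15 (15 and 17 without young replicate 1). Between CASIN and aged libraries no gene passed with edgeR or with DESeq2, and 336 genes had an unadjusted p under 0.05. Of the alternatives, 13 left this count at 0 and 3 gave 1 to 48 genes, with 48 when no filter was used. Without 1 library the count stayed at 0 in 4 fits and was 1 to 25 in 5 (25 without aged replicate 1). In 40 of the 45 genes called for aged and 58 of the 60 called for CASIN, both batches had the direction of the call. This is no separate support, since the call came from the same libraries. The share over all tested genes was not counted. Aged replicate 1 was the only aged library of batch 1, and young replicate 3 the only young one of batch 2.

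Vwf, von Willebrand factor of megakaryocytes and endothelium, was among the genes that rose most. It was at 0, 0.776 and 0 CPM in the young libraries, 58.9, 29.0 and 9.52 CPM in the aged ones and 18.4, 28.3 and 37.0 CPM in the CASIN ones. All 6 libraries of old mice were above all 3 young ones. With 1 UMI in the young group against 66 in the aged group, the ratio of levels was 62.1 with an exact counting interval of 10.8 to 2491 (edgeR adjusted p = 0.00348). Such ratios are of UMIs pooled over a group, and their intervals leave out the spread between its libraries. Clca3a1, a surface protein, was at 0.787, 0.776 and 0 CPM in young, 68.3, 18.6 and 14.3 CPM in aged and 21.0, 38.3 and 18.8 CPM in CASIN libraries. It had 2 young UMIs, and the ratio was 32.5 (8.66 to 274) for aged and 33.1 (8.78 to 279) for CASIN. In the other cells aged was also above young for Vwf (log2 fold change 3.16, edgeR adjusted p = 0.0186) and Clca3a1 (4.58, adjusted p = 0.00446).

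Bmpr1a, a receptor of bone morphogenetic proteins, had no UMI in the young libraries and 9.42, 19.7 and 19.0 CPM in the aged ones and 15.8, 6.67 and 25.1 CPM in the CASIN ones. Against the level that 3 UMIs over the young group would give, it was at least 16.6-fold higher in aged and at least 18.1-fold higher in CASIN libraries. Cavin2, a caveolar coat protein, was at 0, 0.776 and 8.53 CPM in young, 89.5, 12.8 and 8.33 CPM in aged and 44.7, 30.0 and 30.1 CPM in CASIN libraries. On 3 young UMIs, the ratio of CASIN to young was 30.0 (9.92 to 149). Aged replicate 3 lay below young replicate 3, and the aged and young libraries of batch 2 differed by 0.25 on the log2 scale, while the CASIN libraries lay above all young ones. Some further genes were high in single libraries. Cldn5, a tight junction protein, was at 137 CPM in aged replicate 1 and at 1.16 and 1.19 CPM in the other aged libraries. Gpr183, a receptor for oxysterols, was at 87.1 CPM in aged replicate 1 and at 10.4 and 0.595 CPM in the others, and Parvb, a focal adhesion protein, was at 182 CPM in CASIN replicate 1 and at 1.67 and 15.0 CPM in the others. In the other cells, Bmpr1a, Cavin2, Cldn5 and Gpr183 also rose from young to aged, by 3.56, 3.91, 4.96 and 4.84 on the log2 scale. Their edgeR adjusted p was 0.000581, 0.00605, 0.00351 and 0.042. Parvb did not pass there (-0.19, edgeR adjusted p = 0.809).

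Of 18 stem cell genes, 5 rose from young to aged (Procr, Sult1a1, Nupr1, Mllt3 and Gata2) and 5 from young to CASIN (Sult1a1, Nupr1, Mllt3, Gata2 and Pdzk1ip1), with median log2 fold changes of 1.17 and 1.07 against 0.02 and 0.01 for all genes. Among all 8150 tested genes, 0.54% rose from young to aged and 0.699% from young to CASIN. Of 7 megakaryocyte and erythroid genes Vwf and Itga2b rose in both comparisons, and of 16 immediate early genes Jund and Nr4a1 rose from young to aged and none from young to CASIN. From young to CASIN, the Cdk inhibitor gene Cdkn1c and the granule protease gene Ctsg also rose, by 1.92 and 1.73. Il12a, a subunit of interleukin 12, was the only gene that fell from young to aged. The S phase, G2/M, DNA replication, mitosis, replicative histone and variant histone lists held no gene that passed in any of the 3 comparisons. Ccnb2 was at 151, 140 and 51.2 CPM in young, 73.0, 48.7 and 47.0 CPM in aged and 160, 91.6 and 31.4 CPM in CASIN libraries, and the differences did not pass (edgeR adjusted p = 0.792 for aged and 0.64 for CASIN against young). Of the genes called within Hist1h1c/Hist1h2bc-rich cells, 29 of 45 for aged and 37 of 60 for CASIN were also called in the other cells, where 401 and 522 of 13511 genes rose.

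Whether the difference between Hist1h1c/Hist1h2bc-rich and other cells itself depended on the condition was tested as an interaction over the 11611 genes. It passed for 7 genes (0.0603%) between aged and young, for 10 (0.0861%) between CASIN and aged and for 17 (0.146%) between CASIN and young. None of the S phase, DNA replication, G2/M or mitosis genes named above was among them. The linker histone gene H1f0 was among them, and the mean over libraries of its log2 ratio between Hist1h1c/Hist1h2bc-rich and other cells was 1.92 in young and 0.90 in CASIN. The difference fitted by edgeR, which takes the batch as a term and so is not the difference of these means, was -0.89 (adjusted p = 0.000174). Within Hist1h1c/Hist1h2bc-rich cells H1f0 did not pass between CASIN and young (log2 fold change 0.24, edgeR adjusted p = 0.823), and in the other cells it was higher in CASIN libraries (1.09, adjusted p = 0.0084).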

How the data were processed

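The authors made 10x Genomics 3′ v3 libraries from sorted LSK cells, and deposited UMI counts per gene and cell barcode from Cell Ranger 3.1.0 on mm10, as filtered matrices in which barcodes without a cell had been removed. The CITE-seq data made beside them were not used here. The 9 libraries held 32387 barcodes and 19237354 to 42780953 UMIs each, and their depth limits rare genes and small cell classes. Barcodes with 1000 to 40000 UMIs, at most 6000 genes and at most 10% mitochondrial UMIs were kept (15975 cells). Scrublet marked 80 cells as doublets (0.501%, 3 of them Hist1h1c/Hist1h2bc-rich), and they were kept in the results given and left out in an alternative. Cell classes were summed per library, since cells are not replicates. Classes were compared with the edgeR 4.0.16 quasi-likelihood test (TMM, its default filter on low counts, library as a block) and conditions within the class with the batch as a term, with Benjamini-Hochberg adjustment at 0.05. Phases were scored with scanpy 1.11.5 and shares were compared by exact permutation tests, all two-sided. The p-values of the 5 phase and gate shares are given raw and adjusted over these 5, and those of the 3 share comparisons raw. DESeq2 1.42.0 was an alternative, among 33 planned and 4 chosen after seeing the data. Tested on simulated data, the comparison of classes recovered 51% of genes changed by 0.5 and 87.6% of those changed by 1 on the log2 scale, with 8.78% of its calls false (11456 genes). Within the class, aged against young recovered 2.13% and 26.9% (10% false, 7840 genes), CASIN against aged 4.17% and 61.5% (7.35% false, 7889 genes) and CASIN against young 1.06% and 36.2% (2.78% false, 7871 genes). The named genes were the 12 largest rises and 12 largest falls that passed, moved the same way in 9 libraries and reached 20 CPM, up to 4 most abundant genes per list, all tested genes of the G1 cyclin list, up to 5 genes per condition comparison, and Mki67, Top2a and Cdc42. Some genes that meet this rule are not reported here. Other genes named as members of a list were chosen after their values were seen. The members and lists were chosen with earlier results of these data known.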

Additional observations from a re-analysis of the deposited data

Results flagged for a closer look

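For several genes the difference between Hist1h1c/Hist1h2bc-rich and other cells depended on the condition by the interaction test in edgeR, given here as a difference of log2 fold changes, fitted with the batch as a term, with its adjusted p. For Junb, an immediate early gene, it was -0.63 for aged against young (adjusted p = 0.00958) and -0.58 for CASIN against young (0.0126). For the focal adhesion gene Parvb it was 5.27 for aged against young (adjusted p = 0.000111) and 5.58 for CASIN against young (4.22e-08), with 182 CPM in CASIN replicate 1. For the linker histone genes H1f0 and H1fx it was -0.89 (adjusted p = 0.000174) and -0.68 (0.0292) for CASIN against young.

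Between CASIN and aged libraries it was -3.47 for the chemokine gene Ccl5 (edgeR adjusted p = 0.0446), -2.79 for the immunoglobulin gene Ighm (1.74e-05), -2.16 for Cldn5 (0.000156), -4.93 for Iglc1 (2.14e-12) and -0.85 for Nupr1 (2.57e-05). Cldn5 was at 137 CPM in Hist1h1c/Hist1h2bc-rich cells of aged replicate 1 and at 1.16 and 1.19 CPM in those of the other aged libraries. Iglc1 was at 839 CPM in the other cells of CASIN replicate 3 and at 0.0419 to 87.5 CPM in those of the other libraries. In Hist1h1c/Hist1h2bc-rich cells, Ccl5 was the most abundant gene of the lymphocyte list in aged replicate 2, and Nkg7 was in every other library.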

How the results depend on the processing

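The lower share called S kept its direction and its call under the 13 alternatives that gave a value and without each library in turn (-19.8 to -17.2 points). The higher share called G1 lost its call with the selection made on thinned cells (4.82 points), the top 2% (5.50), the top 10% (7.19), no Hist1h1b UMI (7.06) or Hist1h1c left out (2.45), and ranged from 6.79 to 10.6 without 1 library, losing its call without young replicate 1 or 3, aged replicate 2 or 3, or CASIN replicate 3. The share called G2/M lost its call with the top 2% (12.1) and against all other cells (7.12), and ranged from 8.40 to 12.0 without 1 library. The Flt3 share lost it without thinning (4.96; 5.22 to 7.99 without 1 library), and the Procr share gained it without aged replicate 1 or 3 (-4.10 to -2.59). The share of Hist1h1c/Hist1h2bc-rich cells reversed for CASIN against young with the top 2% (-0.39 points) and without Hist1h1c (-0.72). Without 1 library it ran from -0.94 (CASIN replicate 3) to 0.92, with -0.88 without young replicate 3. For aged against young it ran from -0.31 (without aged replicate 3) to 2.74, and for CASIN against aged from -2.63 to 0.42 (without aged replicate 3). The cause of these changes was not tested.

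Genes that rose numbered 451, and 159 with the top 2%, 289 with no Hist1h1b UMI, 692 against all other cells, 145 in thinned cells, 210 with no filter and 205 in batch 2. They numbered 133 within G1 calls (203 in batch 1, 46 in batch 2), 19 in Procr and 235 in Flt3 cells, and 294 (without young replicate 1) to 461 without 1 library. Genes that fell numbered 853, and 269 within G1 calls (328 and 99 in the batches), 51 in Procr cells, 324 in thinned cells, 1314 with no filter, 568 with DESeq2, 473 in batch 2 and 603 to 875 without 1 library. Fewer cells or samples entered the fits of subsets and batches.

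Genes called for aged against young numbered 45, and 0 with the top 2%, 26 without Hist1h1c, 0 with no batch term, 144 with no filter and 11 (without young replicate 2; 15 without young replicate 1) to 70 (without aged replicate 3). For CASIN against young they numbered 60, and 4 with the top 2%, 110 with the top 10%, 37 with no Hist1h1b limit, 39 without Hist1h1c, 0 with no batch term, 173 with no filter and 33 with DESeq2. Without 1 library they numbered 15 (young replicate 2; 17 without young replicate 1 and 32 without CASIN replicate 3) to 74. For CASIN against aged they numbered 0, and 1 with the thinned selection, 1 with the top 2%, 48 with no filter and 0 to 25 (without aged replicate 1; 6 without aged replicate 3). With the replicate block they numbered 53, 74 and 0. Numbers pair no samples here: same-numbered libraries of different batches had correlated deviations of -0.45 and -0.41, those of 1 batch 0.44 to 0.71.

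Mki67 (-0.19) reversed with a mitochondrial limit of 5% (0.30), the thinned selection (0.16), the top 10% (0.18), no Hist1h1b UMI (0.072), Hist1h1c left out (0.22), the top 5% within each library (0.14), G1 calls (1.38; 0.53 in batch 2), Procr cells (0.19), DESeq2 (0.215) and batch 1 (1.28), and ranged from -0.44 to 0.12 (without aged replicate 3) without 1 library, with 0.026 without aged replicate 2. Hlf reversed within G1 calls of batch 1 (-0.13) and Elane with the thinned selection (0.15).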
